A study of Homo sapiens with 6 samples.

Results

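The MYC, MAX and MLX network was taken as 10 of the 20037 protein-coding genes in the RefSeq gene table (GRCh38.p14): MYC, MAX, MXD1, MXD3, MXD4, MXI1, MNT, MGA, MLX and MLXIP. A ChIP-seq peak was assigned to a gene when it lay inside the gene body or within 3 kb of it on hg38, and 84 of 81170 peaks were assigned to these genes. The cells were K562, established from a human chronic myelogenous leukemia, as clones #4 and #5, which each overexpressed USF2 and a FLAG-tagged PLAG1-S, the short form of the zinc finger factor PLAG1. Each clone gave a PLAG1-S library, precipitated through FLAG, a USF2 library and an input library. Sequencing depth, as labelled, was 42.5 M reads per immunoprecipitation and 55 M per input, single-ended at 50 bp. Peaks had been called by the authors separately for each immunoprecipitation against the merged inputs of both clones, so the 4 peak lists share the same background. No library of unmodified K562 cells was analysed here, so all values describe chromatin in which both factors were in excess. Each factor had n = 2 clones, and values are given for each clone, with no test between groups, since an exact two-sided permutation test of 2 against 2 libraries cannot go below p = 0.33.

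The proteins of this network carry a basic helix-loop-helix leucine zipper and bind the E-box CACGTG as dimers. MYC activates growth genes as a dimer with MAX, while the MXD proteins, MXI1, MNT and MGA also pair with MAX and repress E-box genes. MLX dimerises with MLXIP, also called MondoA, which responds to glucose and its phosphates, and with some MXD proteins and MNT, and so joins nutrient sensing to the MYC branch. USF2 belongs to the same structural class and reads the same E-box, whereas PLAG1 reads a G-rich bipartite sequence.

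All 10 network genes carried PLAG1-S in both clones, and 5 of them, MLX, MXD3, MGA, MAX and MLXIP, also carried USF2 at the same place in both clones. A peak of clone 4 counted as reproducible when clone 5 had one for that factor sharing at least 1 bp with it, and 52.0% of coding genes had such a PLAG1-S peak within 3 kb. A co-bound peak was a reproducible PLAG1-S peak with its edges within 100 bp of a reproducible USF2 peak. Co-bound peaks were found at 9.98% of coding genes, and reproducible USF2 peaks at 10.3%, against 5 of 10 network genes for each. By list, a PLAG1-S peak was present at all 10 genes in clone 4 (64.0% of coding genes) and in clone 5 (58.3%), and a USF2 peak at 7 in clone 4 (25.3%) and at 6 in clone 5 (13.6%). MYC, MXD1 and MXI1 had no USF2 peak listed in either clone. MNT and MXD4 had a USF2 peak at the start of the gene in clone 4 alone. A gene missing from a USF2 list had no enrichment past the authors' threshold, which does not show that USF2 was absent.

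Gene starts from the RefSeq promoter table, 250 bases before to 50 bases after the start, were searched for the E-box letters CACGTG, which read the same on both strands. A start window was found for 9 of the 10 genes, and 3 of these 9, MLX, MNT and MXD4, had the E-box, beside 10.9% of the 15843 coding genes with a window. The sequences of these 3 starts are shown because the peak summits lay on or near the E-box. The last sequence is the start of the neighbouring gene RAB24, which holds the summit of the strongest peak assigned to MXD3. Only the MLX window met the first criterion for display, a reproducible USF2 summit inside the window of a network gene, and the other 3 were chosen after their values were seen. Capitals mark the E-box, and each sequence runs 5′ to 3′ along the gene (RefSeq, GRCh38.p14).
MLX, chr17:42566850-42567149, plus strand: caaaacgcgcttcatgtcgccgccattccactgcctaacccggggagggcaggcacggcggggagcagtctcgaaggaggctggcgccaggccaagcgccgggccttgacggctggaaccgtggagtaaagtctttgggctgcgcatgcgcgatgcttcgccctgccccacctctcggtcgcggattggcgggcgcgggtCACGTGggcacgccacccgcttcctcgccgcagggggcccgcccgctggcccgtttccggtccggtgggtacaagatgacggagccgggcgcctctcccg
MNT, chr17:2401011-2401310, minus strand: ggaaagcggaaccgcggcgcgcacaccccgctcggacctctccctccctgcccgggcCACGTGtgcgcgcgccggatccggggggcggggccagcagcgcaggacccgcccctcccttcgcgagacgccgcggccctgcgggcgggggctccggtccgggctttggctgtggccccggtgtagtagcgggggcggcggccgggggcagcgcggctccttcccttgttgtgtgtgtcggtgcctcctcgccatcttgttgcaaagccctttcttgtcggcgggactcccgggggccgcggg
MXD4, chr4:2262060-2262359, minus strand: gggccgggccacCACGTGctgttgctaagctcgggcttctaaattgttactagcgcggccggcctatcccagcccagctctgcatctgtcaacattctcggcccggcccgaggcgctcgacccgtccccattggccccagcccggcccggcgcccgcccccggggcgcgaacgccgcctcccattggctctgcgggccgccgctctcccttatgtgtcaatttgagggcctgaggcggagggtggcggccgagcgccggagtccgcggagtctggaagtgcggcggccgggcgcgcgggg
RAB24, chr5:177303670-177303969, minus strand: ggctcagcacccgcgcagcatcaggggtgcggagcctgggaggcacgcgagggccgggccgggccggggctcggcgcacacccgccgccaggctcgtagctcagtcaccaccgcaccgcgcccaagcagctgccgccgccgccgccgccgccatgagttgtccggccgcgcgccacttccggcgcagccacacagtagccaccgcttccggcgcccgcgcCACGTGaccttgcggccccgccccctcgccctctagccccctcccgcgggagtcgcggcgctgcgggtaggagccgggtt

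The MLX E-box lay at chr17:42567050-42567055, at positions -50 to -45, where negative positions are bases before the start. The USF2 summits were 1 bp (clone 4) and 0 bp (clone 5) from it, and the PLAG1-S summits 5 bp and 12 bp. Both factors thus peaked on the same short stretch of the MLX start in all 4 libraries. The MNT E-box at chr17:2401248-2401253, at positions -193 to -188, lay 28 bp and 1 bp from the PLAG1-S summits of clones 4 and 5 and 27 bp from the clone 4 USF2 summit. The MXD4 E-box at chr4:2262342-2262347, at positions -238 to -233, lay 15 bp and 3 bp from the PLAG1-S summits and 24 bp from the clone 4 USF2 summit. At RAB24 the E-box at chr5:177303744-177303749 held the clone 4 PLAG1-S summit, lay 3 bp from the clone 5 PLAG1-S summit, and was 7 bp and 3 bp from the USF2 summits of clones 4 and 5.

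Over all 35116 start windows, CACGTG occurred in 7.26%. It occurred in 85.2% of the 923 windows that held a reproducible USF2 summit, in 19.5% of the 3285 that held a PLAG1-S summit without a USF2 summit, and in 3.63% of windows with neither. Where a window with an E-box held a summit, the USF2 summit was a median of 5 bp from the E-box (quartiles 2 and 12 bp, n = 776) and the PLAG1-S summit 7 bp (quartiles 2 and 18 bp, n = 1395). The MLX distances were below the upper quartiles in all 4 libraries. These quartiles rest on clone 4 summits, which give the position of a reproducible peak, so clone 5 distances form no part of them. The clone 4 summits at MNT lay beyond the upper quartile for both factors, and the clone 4 USF2 summit at MXD4 beyond that for USF2. The USF2 peaks at MNT and MXD4 were not reproducible, and the clone 4 summits at MXD4 lay outside its window. These USF2 distances are thus set beside quartiles of which they form no part. The G-rich PLAG1 letters, GAGGC or GGGGC followed by 6 to 8 bases and GGG on either strand, were found at the starts of 6 of 9 network genes and 45.4% of coding genes. They were absent from the MLX window, which held the strongest PLAG1-S summit of the network, and this says only that these letters do not occur in those 300 bases. The start windows of MAX, MLXIP, MGA and MXD3 did not contain their co-bound summits, so the sequence under those summits was not searched, except at the peak next to RAB24. A match of letters is a description and was not tested as a binding site.

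The MLX branch held the strongest PLAG1-S peak of the network. MLX encodes the shared dimer partner of MLXIP and several repressors. Its start carried a PLAG1-S peak (chr17:42566645-42567555 in clone 4) with a fold enrichment over the local background of 43.1 in clone 4 and 36.8 in clone 5, a mean of 40.0 ± 4.44 (SD, n = 2). The USF2 fold enrichment at the same place was 17.5 and 17.3, a mean of 17.4 ± 0.151 (SD, n = 2). Among the 10925 coding genes with a PLAG1-S peak in each clone, MLX ranked 78th by its mean strongest fold, within the top 0.714%. The exact Poisson 95% intervals of the PLAG1-S folds, 37.4 to 49.4 and 31.5 to 42.8, overlapped, and such intervals cover counting error only. They rest on 204 and 167 fragments over the summit.

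MLXIP encodes MondoA, the glucose-responsive partner of MLX. Its co-bound peak (chr12:122078173-122078973) covered the start, with PLAG1-S folds of 17.2 and 18.5 (17.9 ± 0.892, SD, n = 2) and USF2 folds of 7.95 and 6.85 (7.4 ± 0.775, SD, n = 2). Clone 5 was the higher for PLAG1-S and clone 4 for USF2, and the intervals overlapped for both factors. A further PLAG1-S peak inside the gene, 19814 bp from the start, had a fold of 7.39 in clone 4 and 3.79 in clone 5. This log2 change of -0.96 stood at the 2.84th percentile of all reproducible PLAG1-S peaks. A USF2 peak deeper in the gene, 58758 bp from the start, was listed in clone 4 alone with a fold of 5.0.

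MAX, the obligate partner of MYC and a partner of the MXD repressors, was co-bound at its start (chr14:65102152-65103328). PLAG1-S folds were 21.9 in clone 4 and 18.7 in clone 5 (20.3 ± 2.25, SD, n = 2), and USF2 folds were 10.6 and 7.71 (9.15 ± 2.03, SD, n = 2). Clone 4 was higher for both factors, with overlapping intervals. Clone 4 listed another USF2 peak 571 bp upstream of the start, with a fold of 6.75, under the same wide PLAG1-S peak. Clone 5 did not list it. The start used here, at 65102283, lies inside the MAX gene body, which ends at 65102695 on the minus strand. The summit of this further peak, at 65102854, is thus nearer to the end of the gene body than to that start.

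**Figure D1:**
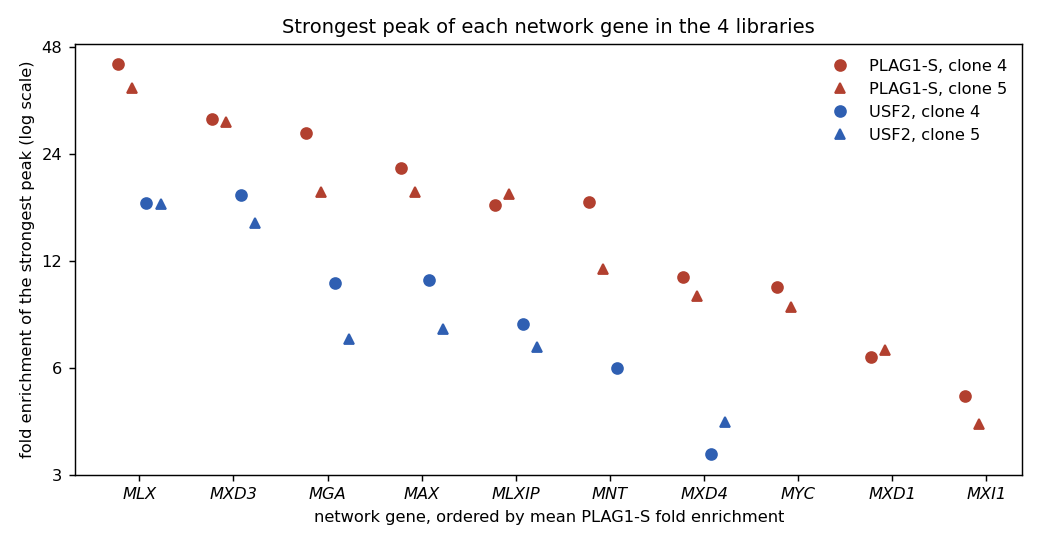
Fold enrichment over the local background (log scale) of the strongest peak of each network gene in each library, with PLAG1-S in red, USF2 in blue, circles for clone 4 and triangles for clone 5; a missing point is a gene with no peak in that list. PLAG1-S folds run from 43.1 at MLX to 4.17 at MXI1, and USF2 points are present in both clones for the 5 co-bound genes and MXD4.

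Among the MAX partners that repress, MXD3 and MGA were co-bound in both clones. MXD3, an MXD family member linked to proliferating cells, had 2 co-bound peaks. The peak inside the gene near its start (chr5:177311890-177312479) had PLAG1-S folds of 20.6 and 15.5 (18.0 ± 3.61, SD, n = 2) and USF2 folds of 6.9 and 5.97 (6.44 ± 0.658, SD, n = 2). The stronger peak (chr5:177302943-177304144) lay outside the gene beyond its 3′ end, 9006 bp from its start, with PLAG1-S folds of 30.0 and 29.6 (29.8 ± 0.319, SD, n = 2) and USF2 folds of 18.4 and 15.3 (16.9 ± 2.19, SD, n = 2). Its summit was 27 bp from the start of RAB24, which encodes a small GTPase, and 53 bp from the start of PRELID1, which encodes a mitochondrial lipid transfer protein. The values assigned to MXD3 by the 3 kb rule are thus those of a start shared by these neighbours, and at the start of MXD3 itself the folds are the lower ones.

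MGA encodes a large repressor that carries a T-box as well as the MAX-binding domain. Its peaks lay not at the first start of the gene but near internal starts, and the co-bound peak (chr15:41661591-41662154) had its summit 1160 bp downstream of the start at 41660747. PLAG1-S folds were 27.4 in clone 4 and 18.8 in clone 5 (23.1 ± 6.1, SD, n = 2), and USF2 folds 10.4 and 7.21 (8.79 ± 2.25, SD, n = 2). The PLAG1-S intervals, 23.4 to 32.0 and 15.4 to 22.8, did not overlap, unlike those at the strongest PLAG1-S peaks of the other 9 network genes. These intervals cover counting error only. The log2 ratio of clone 5 to clone 4, -0.54, stood at the 18.5th percentile of all reproducible PLAG1-S peaks, which were not matched for fold. Among those with a clone 4 fold of at least 10 (n = 4969), the median was -0.41 and the central 95% ran from -1.17 to 0.19. The MGA ratio lay inside this range. The strongest MNT peak fell more, with a log2 ratio of -0.63, and its intervals overlapped. Nearer to that start, 94 bp from it, a weaker PLAG1-S peak had folds of 7.24 and 4.55, and USF2 was listed there in clone 4 alone at 4.58.

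MNT encodes a broadly expressed MAX and MLX partner that opposes MYC. It had 9 PLAG1-S peaks in clone 4 and 6 in clone 5, more than any other network gene in clone 4. The peak at its start (chr17:2400948-2401432) had PLAG1-S folds of 17.6 and 11.4, and a peak 7170 bp inside the gene had folds of 11.6 and 11.4. USF2 was listed at 3 places in clone 4, at the start with a fold of 6.01, and 1297 and 1814 bp inside the gene with folds of 4.29 and 4.21. Clone 5 listed no USF2 peak at MNT, so MNT did not count as co-bound, although PLAG1-S and USF2 peaks lay together at its start in clone 4.

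MXD4, a repressor that pairs with MAX or MLX, had 5 PLAG1-S peaks in clone 4 and 7 in clone 5. Its start (chr4:2261802-2262866) had PLAG1-S folds of 10.8 and 9.57 (10.2 ± 0.874, SD, n = 2). Its USF2 peaks were at different places in the clones, with a fold of 3.43 at the start in clone 4 and 4.22 at the far end of the gene in clone 5. A count of genes with any peak in all 4 lists therefore included MXD4 and came to 6 network genes, beside 11.5% of coding genes, but the co-bound count did not include it.

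MXD1 and MXI1, MXD family repressors induced as cells differentiate, had the lowest PLAG1-S values and no USF2 peak. The strongest MXD1 peaks had PLAG1-S folds of 6.45 in clone 4 and 6.75 in clone 5 (6.6 ± 0.211, SD, n = 2), near the median of 7.3 over the 10925 coding genes, but their summits were 454 bp apart. The clone 5 peak with its summit nearest to that of clone 4, at 812 bp before the start against 798 bp, had a fold of 4.68, below the 6.45 of clone 4. MXI1 had a reproducible PLAG1-S peak at its first start with folds of 4.27 and 4.17 (4.22 ± 0.0705, SD, n = 2), and its strongest clone 4 peak, with a fold of 5.01, was not found in clone 5. By its mean strongest fold MXI1 ranked 9741st of the 10925 genes.

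MYC itself, the activator of the network, had PLAG1-S but no listed USF2. The strand and start of MYC were not given in the tables used here, so distances are from the nearer end of the gene body (chr8:127735434-127742951). The peak 183 bp outside that end in clone 4 and 156 bp in clone 5 had folds of 10.1 and 8.87 (9.5 ± 0.885, SD, n = 2). Peaks inside the gene had folds of 7.63 and 7.85 at 2348 bp from the end, and 4.16 and 3.55 at 881 bp. Another peak, 1399 bp outside, was listed in clone 4 alone with a fold of 4.97. MYC ranked 3677th of the 10925 genes, within the top 33.7%.

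**Figure D2:**
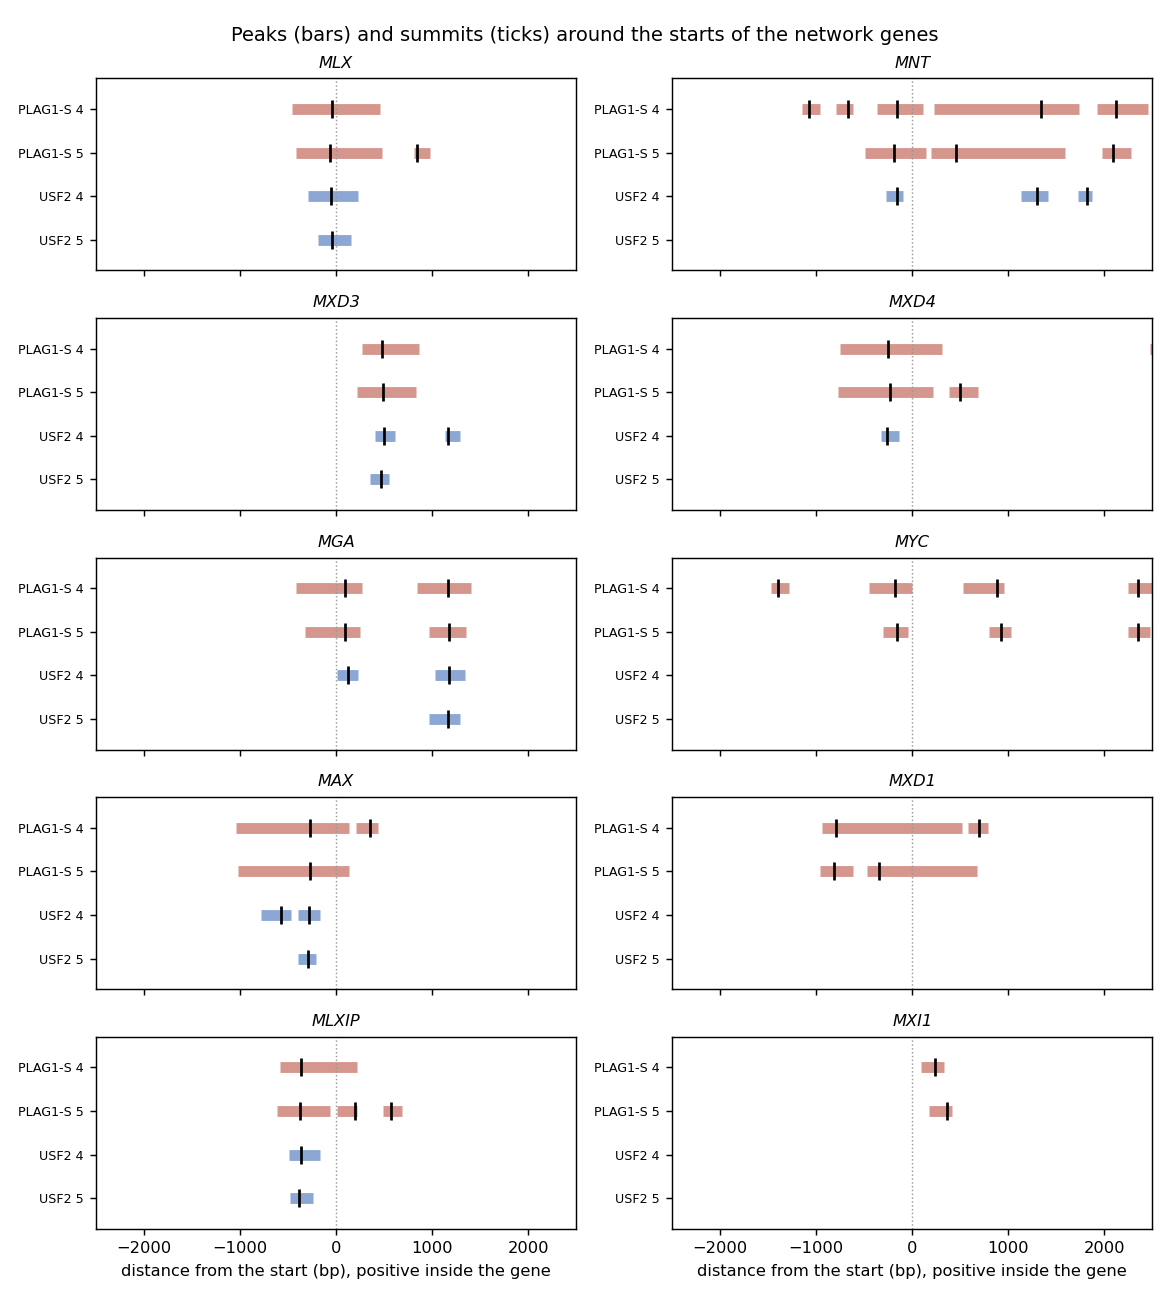
Peaks (bars) and summits (ticks) of the 4 lists within 2.5 kb of the start of each network gene, with PLAG1-S in red, USF2 in blue, and the clone number beside each row; the x axis is the distance from the start in bp, positive into the gene, and for MYC it is the distance from the lower end of the gene body. USF2 bars in both clones line up with PLAG1-S summits at MLX, MXD3, MGA, MAX and MLXIP, and the MXD3 peak beyond its 3′ end lies outside the plotted range.

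At the 6 co-bound peaks the summits of the factors were close. The 4 summits of a peak spanned 22 bp at MLX, 22 bp at MLXIP, 19 bp at MAX, 14 bp at MGA, 29 bp at the MXD3 start and 10 bp at the RAB24 side of MXD3. Within a clone, the PLAG1-S summit lay a median of 10.5 bp from the USF2 summit in clone 4 (2 to 23 bp) and 11.0 bp in clone 5 (0 to 24 bp), beside 15 bp over all 2108 co-bound peaks in clone 4. Distances of this size do not resolve separate sites within a peak.

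Co-binding followed the strength of PLAG1-S, in the network as over all genes. The 5 co-bound network genes were the 5 with the highest mean PLAG1-S fold, from 17.9 at MLXIP to 40.0 at MLX, and the other 5 lay between 4.59 and 14.5. At a limit of 15, chosen after these values were seen, 80.0% of the 1734 coding genes above it were co-bound and 6.67% of the 9191 below it, beside 18.3% of all 10925. The limit lay between the co-bound network genes and the others, so their split of 5 of 5 and 0 of 5 was fixed by its choice. That split adds nothing to the order of folds given above. The shares of 80.0% and 6.67% serve only as a background closer in PLAG1-S fold than the 9.98% of all coding genes. The median over the 10 genes of the mean strongest PLAG1-S fold was 16.2, beside 7.3 over all genes with such peaks. The gene bodies ran from 6104 bp at MLX to 148717 bp at MGA, so the counts were repeated at starts, which are less tied to length. Within 1 kb of a start, all 10 network genes had a reproducible PLAG1-S peak (40.5% of coding genes), 4 a reproducible USF2 peak (7.33%) and 5 a co-bound peak (7.25%). The gene that made the difference was MGA, whose PLAG1-S interval in clone 4 reached within 1 kb of a start while its USF2 interval in clone 4, which sets the position of a reproducible peak, did not.

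The clones gave similar values at the network genes. Clone 4 had the higher PLAG1-S fold at the strongest reproducible peak of 8 of the 10 genes and the higher USF2 fold at 5 of 5, where each clone 4 peak was set against the strongest clone 5 peak that overlapped it. The exceptions for PLAG1-S were MLXIP and MXD1, and at MXD1 the direction turns if the clone 5 peak with the nearest summit is taken. The median log2 ratio of clone 5 to clone 4 was -0.18 over the 23 network PLAG1-S peaks and -0.17 over all 21469 reproducible ones. For USF2 it was -0.24 over the 6 network peaks and -0.28 over all 2409. These medians were not matched for fold. Over all reproducible peaks with a clone 4 fold of at least 10, they were -0.41 for PLAG1-S (n = 4969) and -0.46 for USF2 (n = 668). Of the 23 PLAG1-S peaks, 22 lay within the central 95% of all reproducible peaks, and all 6 USF2 peaks did. The exception was a weak MXD1 peak with a log2 ratio of 0.92, and there the overlapping clone 5 peak had its summit 1040 bp away, so that the value compares separate summits. The PLAG1-S and USF2 lists of the same clone come from the same cells, and the lower clone 5 values moved together with its smaller lists (29889 against 37574 PLAG1-S peaks and 4369 against 9338 USF2 peaks). The part of list size in the USF2 peaks missing from clone 5 at MNT and MXD4 was not tested.

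The share of network peaks found again in the other clone was 23 of 32 and 24 of 31 for the PLAG1-S lists of clones 4 and 5, beside 57.1% and 72.6% of those lists. For USF2 it was 6 of 14 and 6 of 7, beside 25.8% and 55.7%. The median fold of the network USF2 peaks was 6.38 in clone 4 and 7.21 in clone 5, beside list medians of 4.21 and 4.49. The median fold of the network PLAG1-S peaks was 5.9 and 4.87, beside 5.21 and 5.0. The peaks rest on 12 to 204 fragments for PLAG1-S and 15 to 102 for USF2, and the peaks at the low end, such as those inside MXD4, carry wide intervals.

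The wider pathway was described with 61 further genes in 5 lists drawn up for this purpose. Reproducible PLAG1-S peaks were found at 48 of the 61, reproducible USF2 peaks at 18 and co-bound peaks at the same 18, or 29.5%, beside 52.0%, 10.3% and 9.98% of all coding genes. None of the relatives MYCN, MYCL and MLXIPL was co-bound, and MLXIPL alone had a reproducible PLAG1-S peak. None of the 12 genes for turnover of MYC protein was co-bound, and 6 had a reproducible PLAG1-S peak, a share near the 52.0% of all coding genes. No test of these lists was made, and their genes were chosen by hand.

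Among classical targets of MYC, 10 of 15 were co-bound, beside 9.98% of coding genes. All 15 had a reproducible PLAG1-S peak, beside 52.0%. CDK4, the cyclin D-dependent kinase, had the highest values of this list, with PLAG1-S folds of 49.6 and 44.9 and USF2 folds of 28.4 and 20.1. The other co-bound targets were ODC1, which makes polyamines, CAD and PPAT of nucleotide synthesis, NCL, NPM1, FBL and NOP56 of the nucleolus, ENO1 of glycolysis and TERT, the catalytic subunit of telomerase. Their PLAG1-S folds in clone 4 ran from 15.3 at PPAT to 31.9 at NCL. The strength of PLAG1-S was not matched in this comparison, and 80.0% of coding genes with a mean strongest fold of at least 15 were co-bound. All but TERT and FBL, with summits 5778 and 12158 bp from a start, were co-bound within 1 kb of a start. A CACGTG was found in a start window of 6 of the 13 targets with a window, beside 10.9% of coding genes with a window. Among the 10 co-bound targets, 5 had it in a window: ODC1, CDK4, TERT, FBL and PPAT. The co-bound summits of TERT, FBL and PPAT, the last 816 bp from a start, lay outside the start windows. The window E-boxes of TERT, FBL and PPAT were thus not at those summits.

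Of 22 cofactors of the network, 19 had a reproducible PLAG1-S peak and 6 were co-bound, beside 52.0% and 9.98% of coding genes. KAT5, an acetyltransferase that works with MYC, had PLAG1-S folds of 43.5 and 40.6 and USF2 folds of 28.5 and 22.4. All were above those of MLX, although the clone 4 PLAG1-S folds were close (43.5 against 43.1). BPTF, a chromatin remodelling subunit, had 31.8 and 23.8 for PLAG1-S, and E2F6, which shares a repressive complex with MGA, had 26.8 and 16.9. HDAC2, a deacetylase of the SIN3 corepressor, had 21.9 and 19.9. EP400 and HDAC1 had their co-bound summits far from a start, at 37136 and 43296 bp. Neighbouring genes were not examined for the peaks of the lists. Of 9 targets of MLX with its glucose-sensing partners, 7 had a reproducible PLAG1-S peak and 2 were co-bound, beside the same 52.0% and 9.98%. The co-bound ones were FASN of fatty acid synthesis (PLAG1-S folds of 16.5 and 17.3) and the zinc finger gene KLF10 (18.5 and 11.5). TXNIP, a well known MondoA target, had no reproducible peak of either factor.

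**Figure D3:**
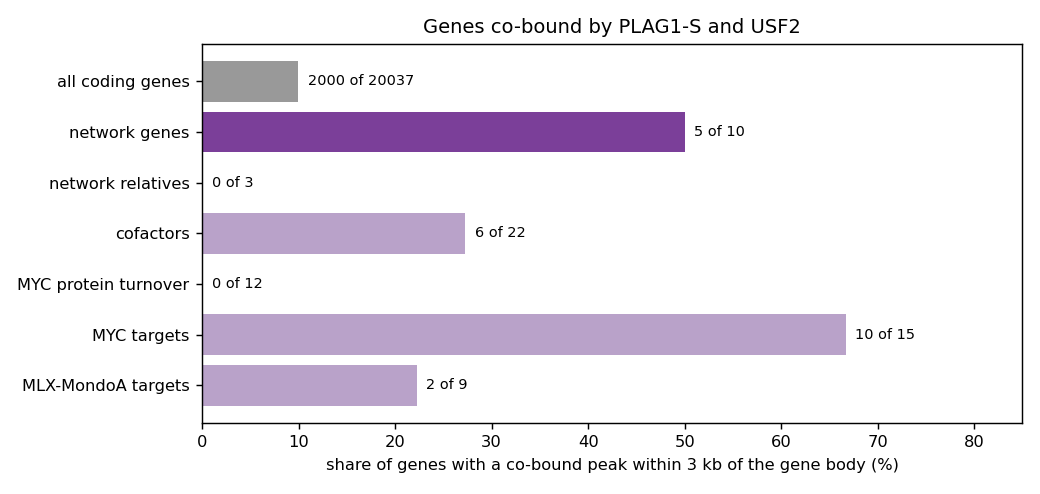
Share of genes (%) with a co-bound peak within 3 kb of the gene body for all coding genes, the network genes and the 5 lists, with the count of genes beside each bar. The network share is 5 of 10 and the share of MYC targets 10 of 15, beside 2000 of 20037 coding genes.

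The genes whose strongest folds in the 4 libraries were nearest to those of MLX, by Euclidean distance of log2 folds over 2302 genes with a peak in every list, were SERF2 and SERINC4 (distance 0.2) and THAP8 (0.23). SERF2 and SERINC4 share the same peak, with PLAG1-S folds of 40.9 and 36.6 and USF2 folds of 16.7 and 15.3. THAP8 had PLAG1-S folds of 42.9 and 33.1 and USF2 folds of 19.7 and 16.8.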

How the data were processed

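ChIP-seq peak lists of 4 immunoprecipitated libraries (PLAG1-S and USF2 in clones 4 and 5) were analysed. Per the labels, reads were handled with cutadapt, HISAT2 2.0.4, SAMtools and MACS2 on hg38; the MACS2 version is not given in the sources used here. Peaks were called by the authors in each library against the merged inputs. The deposited fold is the enrichment at the summit over local background, the deposited −log10 p and −log10 q come from the Poisson model of MACS2, and the deposited score is 10 times the −log10 q, rounded down. The PLAG1-S lists end at q of 0.0099 and 0.00974, the USF2 lists at 0.0494 and 0.0477, so USF2 lists hold weaker calls.

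Values of the PLAG1-S and USF2 antibodies were not compared, as the enrichment they reach differs. Fragment numbers at summits, with their backgrounds, were solved from the fold and p-value deposited by the authors, kept where the −log10 p was matched to within 0.001, and gave exact 95% Poisson intervals on the fold. This step and the overlap steps were tested on simulated data. The simulated folds and p-values were made with the formula that the step solves. The test thus checks the calculation and not whether the formula holds for the deposited lists. Median recovered backgrounds were 3.41 to 3.78 fragments. A shared clone number means the same cell line, so the clone pairs the libraries. Starts came from RefSeq windows, and either gene end was used for the 4194 coding genes without one, MYC included. Exon and intron positions were not annotated here.

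The network genes, lists and definitions were chosen with earlier results of these data known. The text names all network genes, neighbours whose start lies within 1 kb of a network co-bound peak, co-bound genes of the lists, and the 3 genes most like MLX; TXNIP, MYCN, MYCL and MLXIPL were named with their values already known. Alternatives changed the q threshold, overlap, clones, gene window and distance between factors. Python 3.11.15, numpy 2.4.6, pandas 2.3.3, scipy 1.17.1 and matplotlib 3.10.9 were used.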

Additional observations from a re-analysis of the deposited data

How the results depend on the processing

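All 47 alternative values of the counts, the median summit distance, the median fold and the E-box count stayed within 1.5 times the main count or within the spread between clones. This limit is wide for so few genes, and a change from 5 to 7 lies within it. Outside these 47, 3 fold values of single genes moved and are given last. With a −log10 q of at least 10, MXI1 lost its reproducible PLAG1-S peak (9 genes, beside 33.0% of coding genes). The 5 co-bound genes were kept, beside 5.74% of coding genes. With the union of the clones MXD4 and MNT were gained, for 7 co-bound genes beside 22.1%. With clone 4 left out, 6 genes were co-bound (11.3% of coding genes) and 5 at a start (8.0%). With clone 5 left out, 7 genes were co-bound (20.5%) and 7 at a start (14.4%). The median PLAG1-S fold was 14.9 without clone 4 and 17.4 without clone 5, an alternative added after the data were seen. In the paired form, with the clone as a replicate block, 6 genes were co-bound within each clone (MXD4 gained, 10.5% of coding genes), 5 at a start (7.4%), and the mean of the within-clone median summit distances was 10.75 bp. With summits in place of intervals MGA was no longer co-bound at a start (4 genes, beside 7.04% of coding genes). With gene bodies alone MLXIP had no reproducible USF2 peak (4 genes, beside 7.78%). At starts alone the mean folds of MXD3 fell to 18.0 for PLAG1-S and 6.44 for USF2, and that of MGA to 5.9 for USF2, a mean over peaks at different places in the clones (4.58 and 7.21).

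Both clones overexpressed both factors, the background was shared, and the peak lists give neither reads outside peaks nor gene expression. Peaks near the threshold rest on as few as 12 fragments.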
